A study of Mus musculus with 16 samples.

Results

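The transcripts of the hypoxia-inducible factor (HIF) pathway's core were examined in mouse left ventricle with and without pyruvate kinase M2 (PKM2) and with and without myocardial infarction (MI). The group comprised 9 genes, namely the HIF subunits *Hif1a*, *Epas1*, *Hif3a* and *Arnt*, the prolyl hydroxylases *Egln1*, *Egln2* and *Egln3*, the ubiquitin ligase subunit *Vhl* and the asparaginyl hydroxylase *Hif1an*. They were chosen by name and not by their values, and were 9 of the 55492 genes in the table. All 9 were among the 20576 genes whose mean reached the minimum of 10 normalized counts and which were tested.

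HIF is a transcription factor made of an oxygen-sensitive alpha subunit and the stable beta subunit ARNT. When oxygen is available, prolyl hydroxylases modify the alpha subunit, the VHL protein recognizes the modified form and marks it for destruction, and the asparaginyl hydroxylase FIH (*Hif1an*) blocks its binding to coactivators. When oxygen is scarce, as after closure of a coronary artery, these reactions slow and the alpha subunit accumulates as protein, so that control acts mainly on the protein and transcript levels alone do not report HIF activity. PKM2 has been described as a nuclear coactivator of HIF1α, which is why the pathway is of interest in hearts that lack it.

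RNA was sequenced from the left ventricles of 16 male C57BL/6 mice aged 8 to 12 weeks, 1 library per heart. PKM2fl/fl mice, which carry floxed but intact alleles, were the controls. PKM2-/- mice carried a germline deletion, in every tissue, of the exon used in *Pkm2* transcripts, made with Cre under a CMV promoter, after which the Cre allele was bred out. Each genotype had 2 unoperated hearts (baseline), 3 hearts harvested 3 days after sham surgery and 3 hearts harvested 3 days after permanent ligation of the left anterior descending artery (MI). The tissue was left ventricle as a whole, so a lower value cannot be told apart as fewer cells of a type or less RNA per cell.

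Libraries held 20623769 to 71855101 reads. Values are normalized counts, the reads of a gene divided by the size factor of its library. *Pkm*, whose reads come from both its *Pkm1* and *Pkm2* transcripts and therefore do not check the deletion, had 9355 ± 349 normalized counts (SD, n = 2) in PKM2fl/fl and 12482 ± 709 (SD, n = 2) in PKM2-/- hearts at baseline. Reads on a ribosomal RNA locus, CT010467.1, made up 0.111 to 1.39% of a library in the 5 PKM2fl/fl baseline and sham hearts, 4.14 to 15.0% in the 5 PKM2-/- ones, 1.72 to 25.1% in PKM2fl/fl MI and 2.13 to 17.4% in PKM2-/- MI hearts. Genotype and this locus therefore cannot be told apart outside MI. As a share of reads the locus was also higher in every PKM2fl/fl MI heart than in every PKM2fl/fl sham heart. In PKM2-/- hearts the MI and sham ranges overlapped. The response to MI in PKM2fl/fl hearts, and its contrast with that in PKM2-/- hearts, is therefore partly confounded with this locus. Heart 3 of the PKM2fl/fl MI group stood apart from its group in several of the genes below, and results that depend on it are given with and without it. The summed cardiomyocyte markers (8 of 8 detected, among them *Myh6*, *Tnnt2* and *Ttn*) were detected at a high level in all baseline and sham hearts, in keeping with the labelled tissue.

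The promoters of 4 genes are shown because these genes behaved differently in what follows. *Hif1a* was higher after MI, *Egln1* and *Hif1an* were lower, and *Egln3* was the hydroxylase that differed most between genotypes in sham hearts. Each sequence runs 5′ to 3′ on the gene's strand from 250 bases before to 50 bases after the start site, from RefSeq on GRCm38.p6. Capitals mark ACGTG or GCGTG on either strand, the core of the element that HIF binds.
*Hif1a* (chr12:73907617-73907916, forward strand): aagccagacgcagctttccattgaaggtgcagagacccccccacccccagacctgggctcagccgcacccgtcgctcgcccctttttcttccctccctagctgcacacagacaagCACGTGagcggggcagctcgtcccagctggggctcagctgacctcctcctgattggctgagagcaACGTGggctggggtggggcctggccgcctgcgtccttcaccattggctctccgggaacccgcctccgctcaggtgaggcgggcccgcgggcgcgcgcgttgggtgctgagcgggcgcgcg
*Egln1* (chr8:124949205-124949504, reverse strand): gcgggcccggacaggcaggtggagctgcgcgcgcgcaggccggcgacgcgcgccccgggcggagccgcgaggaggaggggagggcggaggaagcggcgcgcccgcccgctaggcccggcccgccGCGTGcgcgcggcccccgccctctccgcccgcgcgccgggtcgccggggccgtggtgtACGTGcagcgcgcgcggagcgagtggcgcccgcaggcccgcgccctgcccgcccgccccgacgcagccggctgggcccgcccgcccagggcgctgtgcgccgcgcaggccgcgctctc
*Hif1an* (chr19:44562604-44562903, forward strand): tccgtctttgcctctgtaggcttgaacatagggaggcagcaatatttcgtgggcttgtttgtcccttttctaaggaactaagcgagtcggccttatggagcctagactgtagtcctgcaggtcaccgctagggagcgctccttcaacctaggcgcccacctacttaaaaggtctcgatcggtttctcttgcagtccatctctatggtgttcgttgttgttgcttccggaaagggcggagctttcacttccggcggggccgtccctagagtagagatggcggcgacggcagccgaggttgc
*Egln3* (chr12:54203825-54204124, reverse strand): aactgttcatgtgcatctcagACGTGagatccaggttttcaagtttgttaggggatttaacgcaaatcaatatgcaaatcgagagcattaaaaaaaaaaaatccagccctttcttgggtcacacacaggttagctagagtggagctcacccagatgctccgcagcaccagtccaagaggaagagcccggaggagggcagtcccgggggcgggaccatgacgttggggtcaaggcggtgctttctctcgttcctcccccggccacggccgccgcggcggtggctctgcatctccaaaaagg

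Counting from the start site, with -1 as the base before it, the *Hif1a* window held ACGTG at -135, -134 and -70. The first 2 overlap, since CACGTG reads the same on both strands and contains ACGTG once on each. The *Egln1* window, 86.0% G and C, held GCGTG at -126 and ACGTG at -68, and the *Egln3* window held ACGTG at -229. The *Hif1an* window held 0 matches. RefSeq windows were found for 8 of the 9 genes, all but *Epas1*, and 6 of the 8 held at least 1 match when 1 window was read per gene. Of 27025 genes with a window, 43.8% held a match, 19.7% held ACGTG and 32.5% held GCGTG, so a match is common and is given as a description of the letters only.

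The first question was how infarction changed these transcripts. In PKM2fl/fl hearts 7 of the 9 genes differed between MI and sham, with *Hif1a* and *Vhl* higher and *Epas1*, *Hif3a*, *Egln1*, *Egln2* and *Hif1an* lower. In PKM2-/- hearts 6 differed, with *Hif1a* and *Vhl* higher and *Epas1*, *Egln1*, *Egln3* and *Hif1an* lower. A gene is said to differ when limma's test, fitted to log2(normalized count + 1) of all 16 libraries, gave a Benjamini-Hochberg adjusted p under 0.05 over all genes tested. Infarction changed much of the transcriptome, so these counts stand against a high background. By the same rule 50.1% of all genes differed in PKM2fl/fl hearts (24.8% higher and 25.3% lower) and 56.8% in PKM2-/- hearts (28.7% higher and 28.1% lower). With total count scaling the split was 2368 genes higher and 3633 lower in PKM2fl/fl and 7217 higher and 1891 lower in PKM2-/- hearts. With the further rule of at least a 2-fold change, 3 of the 9 genes were called in PKM2fl/fl hearts against a background of 23.5%, and 4 in PKM2-/- hearts against 28.8%. The 5 genes called in the same direction in both genotypes were *Hif1a*, *Vhl*, *Epas1*, *Egln1* and *Hif1an*, where 43.3% of all genes were. Where groups are said below not to overlap, this only describes their values. The share of all genes without overlap is not given here.

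**Figure D1:**
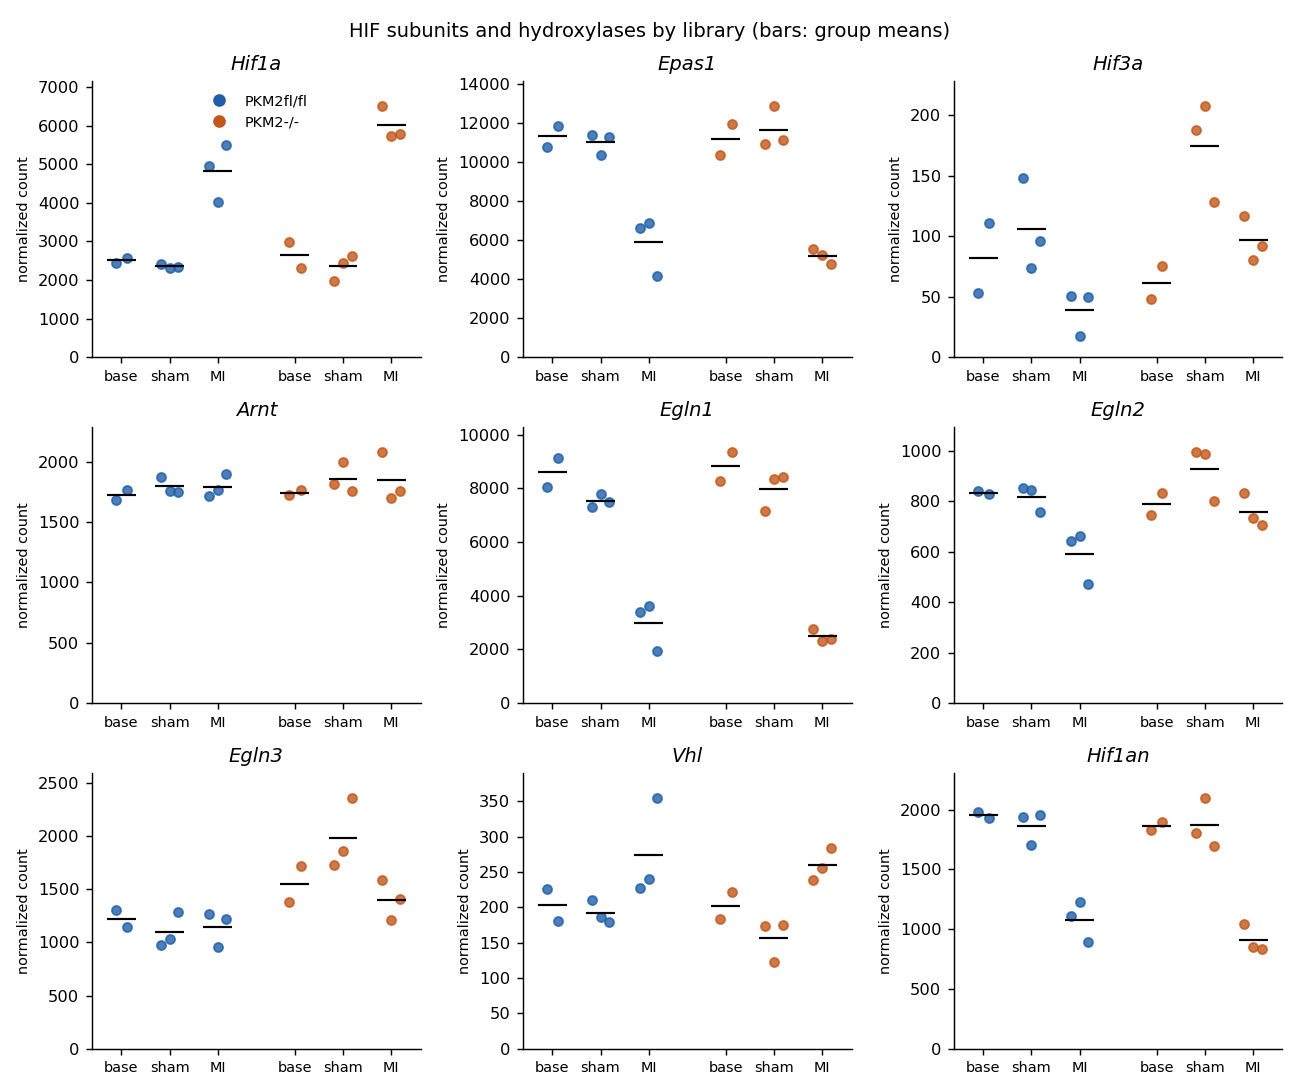
Normalized counts (vertical axes, linear from 0) of the 9 genes in each of the 16 hearts, with PKM2fl/fl in blue and PKM2-/- in orange at baseline (base), sham and MI. Points are hearts and bars are group means. *Hif1a* rises above every sham heart after MI in both genotypes, *Epas1*, *Egln1* and *Hif1an* fall below every sham heart, and *Arnt* overlaps throughout.

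Among the alpha subunits, *Hif1a* and *Epas1* moved in opposite directions. *Hif1a* encodes HIF1α, the subunit that drives glycolytic genes in most cells. In PKM2fl/fl hearts it had 2402, 2319 and 2334 normalized counts after sham surgery and 4950, 4023 and 5503 after MI. The PKM2-/- hearts had 1979, 2445 and 2635 after sham surgery and 6505, 5737 and 5786 after MI. Every MI heart was above every sham heart of its genotype and above the baseline hearts, which had 2447 and 2583 in PKM2fl/fl and 2998 and 2313 in PKM2-/-. The log2 difference between MI and sham was 1.02 ± 0.13 (SE, adjusted p = 1.74e-05, limma) in PKM2fl/fl and 1.36 ± 0.13 (adjusted p = 9.68e-07) in PKM2-/- hearts, or 2.03-fold and 2.57-fold. Both were called under all 28 alternatives tried. The gene lies on chromosome 12, from 73901324 to 73947554 on the forward strand of GRCm38.p6. Its exons overlap those of Gm15283, a long noncoding RNA gene on the opposite strand, by up to 695 bases in the GENCODE M39 annotation. The canonical *Hif1a* transcript has 6849 bases there, and the gene models used for counting may differ. The count of Gm15283 was 1.01 to 1.03 times that of *Hif1a* in every library, so the reads of the 2 genes cannot be told apart. The library kit did not mark strand and the counting settings are not given, and the cause of the near-equal counts was not tested. The shares, ratios and ranks of *Hif1a* below carry this limit.

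*Epas1* encodes HIF2α, the alpha subunit known for its abundance in endothelium. It fell after MI. PKM2fl/fl hearts had 11392, 10337 and 11261 normalized counts after sham surgery and 6633, 6850 and 4166 after MI. PKM2-/- hearts had 10916, 12853 and 11135 after sham surgery and 5543, 5239 and 4751 after MI. The groups did not overlap in either genotype. The baseline hearts, 10777 and 11833 in PKM2fl/fl and 10335 and 11959 in PKM2-/-, lay with the sham hearts. MI hearts were lower by 0.94 ± 0.16 on the log2 scale (SE, adjusted p = 0.000172) in PKM2fl/fl, 1.91-fold, and by 1.17 ± 0.16 (adjusted p = 1.7e-05) in PKM2-/-, 2.25-fold. With total count scaling the PKM2-/- difference was -0.65 with an adjusted p of 0.105. That scaling moved the median of all genes by 0.52 in this comparison.

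*Hif3a*, an alpha subunit with splice forms that restrain the others, was the scarcest of the 9, with 16 to 252 reads per library. In PKM2fl/fl hearts it had 148, 73.9 and 96.1 normalized counts after sham surgery and 51.0, 17.1 and 49.4 after MI. Among PKM2-/- hearts the values were 188, 208 and 128 after sham surgery and 117, 80.7 and 92.3 after MI. The MI hearts were below the sham hearts in both genotypes without overlap. The log2 difference was -1.50 ± 0.40 (SE, adjusted p = 0.00547) in PKM2fl/fl and -0.84 ± 0.40 (adjusted p = 0.087) in PKM2-/- hearts, so that only the first passed the test. The second passed under 3 of 28 alternatives, without PKM2fl/fl MI heart 2 (adjusted p = 0.0333), with limma-voom on the recovered reads (adjusted p = 0.0473) and in a fit of the compared groups alone (adjusted p = 0.0119). The difference between these 2 responses, 0.67 with a 95% confidence interval of -0.54 to 1.87, did not pass (adjusted p = 0.773).

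*Arnt*, which encodes the beta subunit shared by the alpha subunits, was the steadiest of the 9. Its values ran from 1688 to 2083 normalized counts over all 16 hearts. Hearts after sham surgery had 1878, 1760 and 1754 in PKM2fl/fl and 1820, 1998 and 1763 in PKM2-/-, and hearts after MI had 1714, 1766 and 1904 and 2083, 1705 and 1761. These ranges overlapped, and the 95% confidence intervals of the log2 difference between MI and sham were -0.20 to 0.19 in PKM2fl/fl and -0.20 to 0.18 in PKM2-/- hearts, which leaves room for a change of that size.

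The 3 prolyl hydroxylases differed from each other in their response. *Egln1* encodes PHD2, regarded as the main oxygen sensor of the pathway. It had 7296, 7801 and 7509 normalized counts in PKM2fl/fl sham hearts and 3379, 3606 and 1923 in PKM2fl/fl MI hearts. The PKM2-/- hearts had 7156, 8335 and 8415 after sham surgery and 2759, 2325 and 2389 after MI. The sham and MI values were separated in both genotypes, and the baseline hearts, at 8061 and 9138 in PKM2fl/fl and 8279 and 9359 in PKM2-/-, lay with or above the sham hearts. The log2 difference was -1.40 ± 0.18 (SE, adjusted p = 1.59e-05, limma) in PKM2fl/fl and -1.68 ± 0.18 (adjusted p = 2.08e-06) in PKM2-/- hearts. These are 2.63-fold and 3.20-fold lower, called under all 28 alternatives.

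*Egln2*, which encodes PHD1, had 854, 845 and 758 normalized counts in PKM2fl/fl sham hearts and 642, 662 and 473 in MI hearts. The MI hearts were lower without overlap, with a log2 difference of -0.48 ± 0.13 (SE, adjusted p = 0.00612). In PKM2-/- hearts it had 997, 990 and 803 after sham surgery and 835, 736 and 705 after MI, which overlapped, with a difference of -0.29 ± 0.13 (adjusted p = 0.0702). The latter passed under 5 of 28 alternatives. It did so without PKM2-/- sham heart 3, PKM2-/- MI heart 1 or PKM2fl/fl MI heart 3 (adjusted p = 0.0231 to 0.0473). It also passed with replicate number as a block (adjusted p = 0.0239) and with the level of the ribosomal RNA locus in the fit (-0.30, adjusted p = 0.0325). The PKM2fl/fl call was lost when the level of the ribosomal RNA locus entered the fit (-0.21, adjusted p = 0.342) and with total count scaling (-0.66, adjusted p = 0.106). An exon of *Cyp2t4* on the opposite strand overlaps *Egln2*, and that gene had 26.8 to 84.3 normalized counts.

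*Egln3* encodes PHD3, a hydroxylase that is itself a classical target of HIF. In PKM2fl/fl hearts it had 979, 1031 and 1285 normalized counts after sham surgery and 1264, 957 and 1216 after MI. In PKM2-/- hearts it had 1730, 1861 and 2359 after sham surgery and 1585, 1211 and 1404 after MI. The PKM2fl/fl groups overlapped (0.06 ± 0.15, SE, adjusted p = 0.766), whereas in PKM2-/- every MI heart was below every sham heart (-0.50 ± 0.15, adjusted p = 0.0119). The difference between the 2 responses was -0.56 with a 95% confidence interval of -1.02 to -0.10 and did not pass the test over all genes (unadjusted p = 0.0212, adjusted p = 0.54). The PKM2-/- call was lost without sham heart 3 (-0.37, adjusted p = 0.0676) or MI heart 2 (-0.40, adjusted p = 0.062) of that genotype, and the difference was 0.01 with total count scaling.

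*Vhl*, the substrate-recognition subunit of the ligase that destroys hydroxylated HIF, rose modestly. It had 211, 186 and 180 normalized counts in PKM2fl/fl sham hearts and 227, 240 and 355 in MI hearts. Values in PKM2-/- hearts were 174, 123 and 175 after sham surgery and 239, 255 and 284 after MI. MI hearts were above sham hearts in both genotypes, by 0.48 ± 0.19 on the log2 scale (SE, adjusted p = 0.0413) in PKM2fl/fl and 0.74 ± 0.19 (adjusted p = 0.00332) in PKM2-/-. The PKM2fl/fl value leaned on MI heart 3, without which it was 0.28 (adjusted p = 0.214). It also lost its call without PKM2fl/fl sham heart 2 or 3 or PKM2-/- MI heart 2. The call was lost too with the level of the ribosomal RNA locus in the fit (0.30, adjusted p = 0.415) and with total count scaling (0.31, adjusted p = 0.521). Upper quartile scaling, no filter on low values and a fit of the compared groups alone also lost it (adjusted p = 0.0518 to 0.0729). It was kept under 19 of 28 alternatives, against 28 of 28 for the PKM2-/- value.

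*Hif1an*, which encodes FIH, fell. It had 1936, 1704 and 1952 normalized counts in PKM2fl/fl sham hearts and 1108, 1225 and 895 in MI hearts. The values of PKM2-/- hearts were 1809, 2100 and 1700 after sham surgery and 1046, 852 and 838 after MI. The groups did not overlap, with log2 differences of -0.80 ± 0.12 (SE, adjusted p = 7.91e-05) in PKM2fl/fl and -1.04 ± 0.12 (adjusted p = 5.39e-06) in PKM2-/- hearts, 1.74-fold and 2.05-fold lower. The PKM2-/- call was lost with total count scaling alone (-0.52, adjusted p = 0.16).

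**Figure D2:**
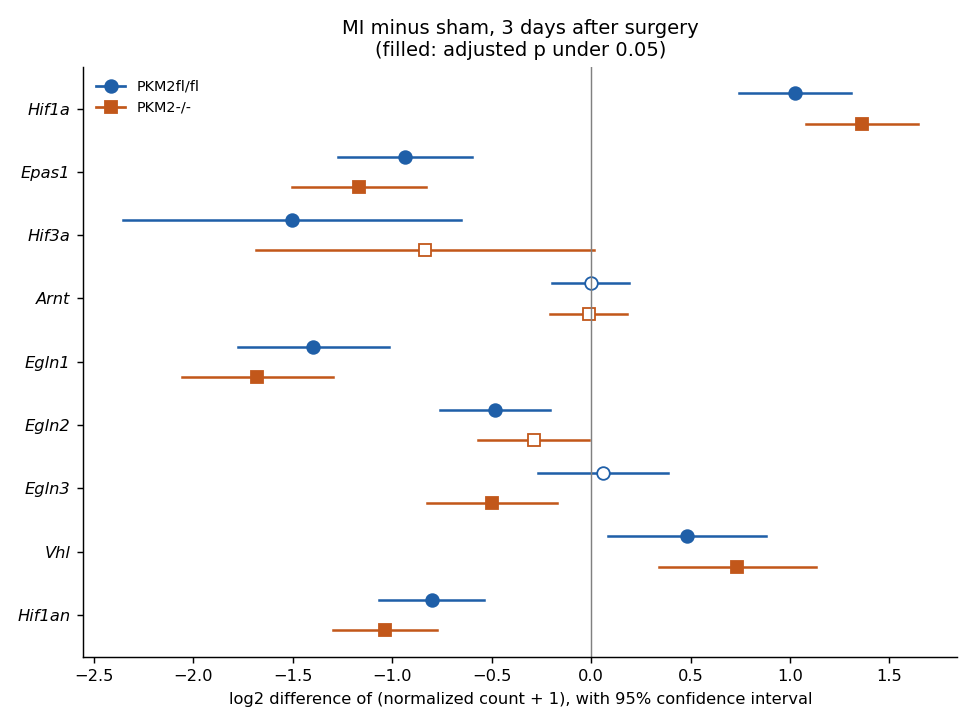
Log2 difference between MI and sham hearts (horizontal axis) of the 9 genes, as points with 95% confidence intervals from the limma fit, PKM2fl/fl as blue circles and PKM2-/- as orange squares, filled where the adjusted p was under 0.05. *Hif1a* and *Vhl* lie to the right of 0 in both genotypes, *Epas1*, *Egln1* and *Hif1an* to the left, and *Egln3* lies at 0.06 in PKM2fl/fl and -0.50 in PKM2-/-.

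Since the alpha subunits compete for the same partner, their balance was also compared within each heart, where it does not depend on how libraries are scaled. Per kilobase of transcript, *Hif1a* made up 14.6 ± 0.541% (SD, n = 3) of the summed alpha subunit counts in PKM2fl/fl sham hearts and 40.3 ± 9.93% (SD, n = 3) in MI hearts. In PKM2-/- hearts it made up 13.9 ± 1.77% after sham surgery and 47.9 ± 1.30% after MI. *Epas1* made up 84.7 ± 0.451% and 59.4 ± 10.1% in PKM2fl/fl hearts and 85.0 ± 1.53% and 51.2 ± 1.38% in PKM2-/- hearts. *Hif3a* was at most 1.28% in any heart of these groups. The largest *Hif1a* share among PKM2fl/fl MI hearts, 51.3%, was that of heart 3, and the smallest was 32.1%.

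The log2 ratio of *Hif1a* to *Epas1* was higher after MI by 2.24 over the 12 operated hearts (two-sided exact permutation test within genotype, p = 0.005, the smallest that the 400 permutations can give, adjusted p = 0.00667 over 4 ratios). All 6 MI hearts, at -0.77 to 0.40, were above all 6 sham hearts, at -2.46 to -2.08. The difference was 1.96 within PKM2fl/fl and 2.53 within PKM2-/- hearts, each with the exact permutation p of 0.1 that is the smallest for 3 against 3. The ratio of *Hif1a* to *Hif3a* was higher by 2.36 (exact permutation p = 0.005, adjusted p = 0.00667) and that of *Egln3* to *Egln1* by 1.32 (exact permutation p = 0.005, adjusted p = 0.00667). For the *Hif1a* ratios and that of *Egln3* to *Egln1* this p was fixed in advance. Within each genotype *Hif1a* was higher and *Epas1* and *Hif3a* were lower after MI without overlap. The gap in *Egln1* between sham and MI hearts was wider, on the log2 scale, than the whole range of *Egln3* in these hearts of each genotype. These tests are therefore no independent support for the single-gene comparisons. The ratio of *Egln3* to *Egln2* differed by 0.17 and did not pass (exact permutation p = 0.47).

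Among the hydroxylases the share of *Egln1* shrank. Per kilobase it made up 68.3 ± 1.14% (SD, n = 3) of the 3 hydroxylases in PKM2fl/fl sham hearts and 48.0 ± 8.05% in MI hearts, and 60.6 ± 1.35% and 39.2 ± 0.559% in PKM2-/- hearts. *Egln3* went from 16.3 ± 2.19% to 31.8 ± 8.45% in PKM2fl/fl and from 24.7 ± 2.70% to 36.1 ± 1.78% in PKM2-/- hearts. *Egln2* made up 15.4 ± 1.28% and 20.2 ± 0.698% in PKM2fl/fl and 14.8 ± 2.64% and 24.7 ± 1.23% in PKM2-/- hearts. The larger share of *Egln3* after MI stood beside a count that was not called higher in either genotype. In PKM2fl/fl hearts the log2 difference of its count between MI and sham was 0.06 ± 0.15 (SE), which leaves room for a rise. In PKM2-/- hearts the log2 difference was -0.50 ± 0.15 (SE).

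**Figure D3:**
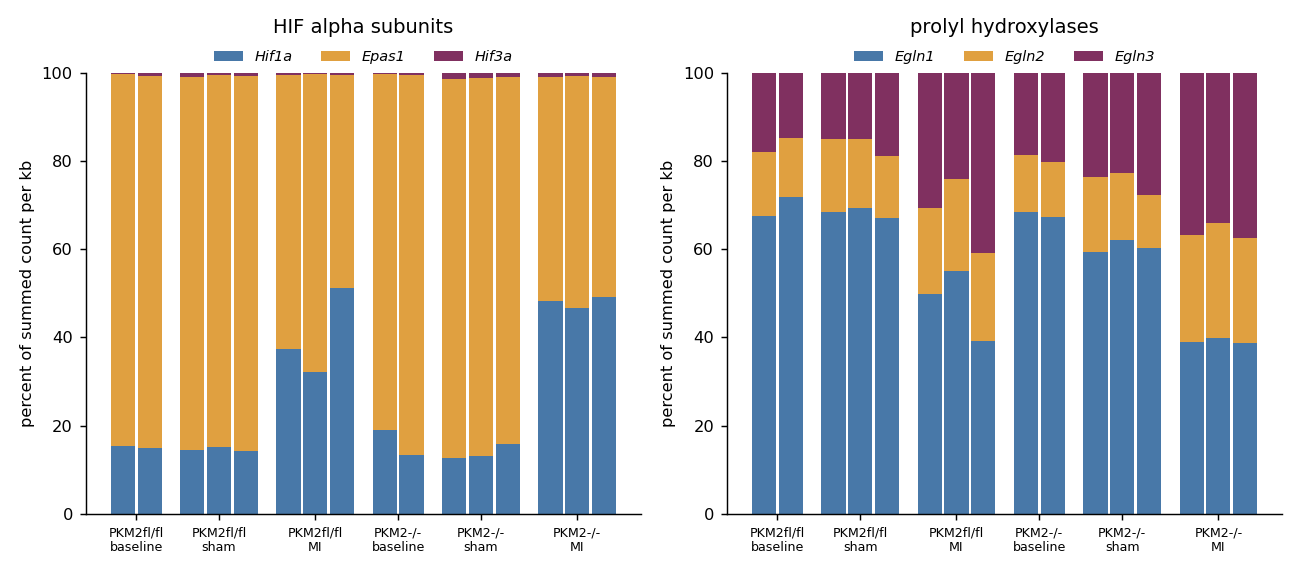
Percent of the summed normalized count per kilobase (vertical axes, 0 to 100) held by each HIF alpha subunit (left) and each prolyl hydroxylase (right), with 1 stacked bar per heart and hearts grouped by genotype and condition. The *Hif1a* share is 12.6 to 18.9% in the baseline and sham hearts and 32.1 to 51.3% in the MI hearts, and the *Egln1* share is 59.3 to 71.8% before and 38.8 to 55.1% after MI.

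The order of the levels also changed. Per kilobase, the order in PKM2fl/fl sham hearts was *Epas1* (1992 normalized counts), *Egln1* (1707), *Egln3* (408), *Egln2* (384), *Arnt* (382), *Hif1a* (343), *Hif1an* (300.1), *Vhl* (68.7) and *Hif3a* (16.6), with overlap between hearts from *Egln3* through *Egln2* to *Arnt*. In PKM2fl/fl MI hearts it was *Epas1* (1066), *Hif1a* (705), *Egln1* (673), *Egln3* (426), *Arnt* (381), *Egln2* (278), *Hif1an* (173), *Vhl* (98.0) and *Hif3a* (6.12), with overlap between neighbours from *Epas1* down to *Arnt*. *Hif1a* thus stood at rank 2 in place of rank 6. In PKM2-/- MI hearts the first 3 were *Epas1* (938), *Hif1a* (877) and *Egln1* (564), with overlap between *Epas1* and *Hif1a* only among them.

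The second question was whether the loss of PKM2 altered these transcripts. By the same rule 0 of the 9 genes differed between genotypes in any condition. At baseline 0.00972% of all genes differed between genotypes, in sham hearts 0.00972% and in MI hearts 0.967%, so few genes of any kind passed. The differences of the 9 genes at baseline ran from -0.36 (*Hif3a*) to 0.33 (*Egln3*) on the log2 scale. At an unadjusted p under 0.05, 0 of the 9 genes passed at baseline (3.64% of all genes), 1 in sham (9.95%) and 3 in MI hearts (17%). The interaction of genotype with MI, the direct test of whether the response to infarction differed, gave 0 calls among the 9 genes and 0% of all genes, with 1 of the 9 genes and 1703 genes in all (8.28%) at an unadjusted p under 0.05. DESeq2 on the recovered reads called *Egln3* in sham hearts and *Hif3a* in MI hearts and 0 of the other members, with 1.29% of all genes called by that tool in sham and 5.64% in MI hearts.

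*Egln3* was the gene nearest to a genotype difference. After sham surgery the PKM2-/- hearts, at 1730 to 2359 normalized counts, were all above the PKM2fl/fl hearts, at 979 to 1285. The log2 difference was 0.85 ± 0.15 (SE, 95% confidence interval 0.52 to 1.18), 1.80-fold, with an adjusted p of 0.0774 by limma and 0.000339 by DESeq2. At baseline the PKM2-/- hearts had 1380 and 1719 against 1304 and 1145, a difference of 0.33 ± 0.19 (adjusted p = 1). These values did not overlap, which carries little weight with 2 hearts per group. *Hif1an*, at a difference of -0.07, did not overlap at baseline either. After MI the difference was 0.29 ± 0.15 (adjusted p = 0.355) and the groups overlapped. Averaged over the 3 conditions, a comparison chosen after the data had been seen, PKM2-/- hearts were higher by 0.49 ± 0.10 (adjusted p = 0.0722 by limma, 0.00121 by DESeq2). By limma 0 of the 9 genes passed in that average and 0.102% of all genes did, and by DESeq2 1.54% did. Without PKM2fl/fl MI heart 3, which enters the sham comparison through the shared estimate of the spread, the sham difference passed (adjusted p = 0.0476, with 0.205% of all genes called). The average, whose value this heart enters directly, also passed without it (0.51, adjusted p = 0.0139, with 3.49% called). Over the alternatives tried the adjusted p of the sham difference ran from 0.000339 to 0.628. The ribosomal RNA locus was higher in the same PKM2-/- sham hearts, and its part in the difference was not tested beyond its use as a covariate, with which the difference was 0.67 (adjusted p = 0.552).

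*Hif3a* was higher in PKM2-/- than in PKM2fl/fl hearts after MI, at 80.7 to 117 against 17.1 to 51.0 normalized counts, without overlap. The log2 difference was 1.41 ± 0.40 (SE, 95% confidence interval 0.56 to 2.26) with an adjusted p of 0.0941 by limma and 0.026 by DESeq2. *Hif1a* was higher by 0.33 ± 0.13 (adjusted p = 0.226) and *Egln2* by 0.37 ± 0.13 (adjusted p = 0.165) in PKM2-/- MI hearts, also without overlap. Lack of overlap carries little weight with 3 hearts per group. The share of all genes without overlap is not given here, and 17% of all genes had an unadjusted limma p under 0.05 between MI groups. Without PKM2fl/fl MI heart 3, 3 of the 9 genes were called between the MI groups, where 11.1% of all genes were, namely *Hif3a* (1.65, adjusted p = 0.0239), *Egln1* (-0.49, adjusted p = 0.00895) and *Epas1* (-0.38, adjusted p = 0.0334). For *Arnt*, *Vhl* and *Hif1an* the 95% confidence intervals between MI groups were -0.15 to 0.23, -0.45 to 0.34 and -0.50 to 0.03.

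**Figure D4:**
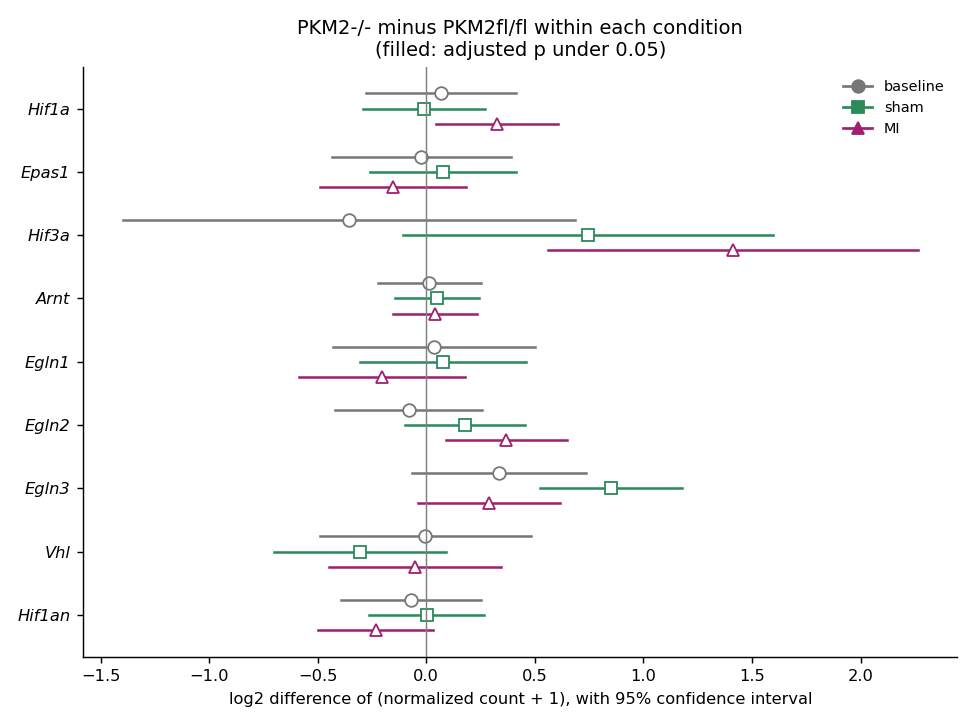
Log2 difference between PKM2-/- and PKM2fl/fl hearts (horizontal axis) of the 9 genes at baseline (grey circles), after sham surgery (green squares) and after MI (purple triangles), with 95% confidence intervals from the limma fit. All symbols are open, since 0 of the 9 genes passed an adjusted p under 0.05 in any condition, and *Egln3* in sham (0.85) and *Hif3a* in MI hearts (1.41) lie farthest from 0.

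Sham surgery itself, against unoperated hearts, gave 0 calls among the 9 genes in PKM2fl/fl, where 0.19% of all genes differed, and 0 in PKM2-/- hearts, where 5.14% did. The value nearest to a call was that of *Hif3a* in PKM2-/- hearts, with 47.8 and 75.1 normalized counts at baseline and 128 to 208 after sham surgery. Its log2 difference was 1.50 ± 0.45 (SE, adjusted p = 0.0673 by limma, 0.0135 by DESeq2, 0.0235 by limma without PKM2fl/fl MI heart 2), where DESeq2 called 6.8% of all genes and limma without that heart 5.42%. In PKM2fl/fl hearts *Hif3a* had 53.4 and 111 at baseline, which overlapped the sham hearts (0.40 ± 0.45, adjusted p = 0.922).

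The other genes of the pathway were read from 3 lists. Of 16 partners of HIF (the rest of the VHL ligase, coactivators, chaperones and other regulators), 3 were higher and 6 lower after MI in PKM2fl/fl and 4 and 5 in PKM2-/- hearts. Over all genes tested, 24.8% were higher and 25.3% lower in PKM2fl/fl and 28.7% and 28.1% in PKM2-/- hearts. The partners had a median log2 difference of -0.22 and -0.14, beside -0.00 and 0.01 over all genes tested. *Rack1*, a scaffold that can promote destruction of HIF1α without oxygen sensing, was higher by 0.61 ± 0.13 (SE) and 0.82 ± 0.13. *Hsp90aa1*, a chaperone of HIF1α, was higher by 0.72 ± 0.17 and 0.44 ± 0.17. *P4htm*, a transmembrane prolyl hydroxylase, had differences of -1.21 ± 0.27 and -1.65 ± 0.27. *Rbx1*, the RING subunit of the VHL ligase, had a difference of -0.48 ± 0.11 (adjusted p = 0.00155) in PKM2fl/fl and 0.00 ± 0.11 (adjusted p = 0.976) in PKM2-/- hearts. The interaction of genotype with MI for *Rbx1*, 0.48 ± 0.15, did not pass (adjusted p = 0.459, limma), nor did its difference between MI groups (0.44, adjusted p = 0.0593).

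Glycolytic targets of HIF split in both directions, as all genes did. Of 17, 6 were higher and 5 lower after MI in PKM2fl/fl and 7 and 7 in PKM2-/- hearts, with medians of -0.01 and 0.14. The shares of all genes were 24.8% higher and 25.3% lower in PKM2fl/fl and 28.7% and 28.1% in PKM2-/- hearts. *Slc16a3*, a lactate exporter, was higher by 2.52 ± 0.29 (SE) and 2.97 ± 0.29, *Eno1* (enolase) by 1.33 ± 0.16 and 1.56 ± 0.16, and *Slc2a1* (the glucose transporter GLUT1) by 1.54 ± 0.20 and 1.70 ± 0.20. *Pdk1*, which encodes a kinase that restrains entry of pyruvate into mitochondria, had differences of -0.99 ± 0.12 and -1.06 ± 0.12. All 8 of these values passed the test.

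Of 26 other targets, 11 were higher and 7 lower in PKM2fl/fl and 10 and 6 in PKM2-/- hearts, with medians of 0.12 and 0.26. The shares of all genes were again 24.8% higher and 25.3% lower in PKM2fl/fl and 28.7% and 28.1% in PKM2-/- hearts. *Hmox1* (heme oxygenase) was higher by 4.50 ± 0.29 (SE) and 4.54 ± 0.29, and *Lox* (lysyl oxidase, which cross-links collagen) by 3.69 ± 0.25 and 3.78 ± 0.25. *Higd1a*, a mitochondrial protein induced by hypoxia, had differences of -1.04 ± 0.12 and -0.79 ± 0.12. Between genotypes, 1 of the 59 genes of the 3 lists was called, *Ddit4* in MI hearts (1.58 ± 0.30, adjusted p = 0.0319), where 0.967% of all genes were. *Ddit4*, a stress-induced inhibitor of mTORC1, is named here after its value was seen. After sham surgery against baseline in PKM2-/- hearts 9 genes of the lists were called, all higher, where 3.48% of all genes were called higher, among them *Siah2* (1.50, adjusted p = 0.00421), a ubiquitin ligase for the prolyl hydroxylases, and *Ddit4* (2.13, adjusted p = 0.0028), both also named after their values were seen. In PKM2fl/fl hearts *Lox* was called in the same comparison (1.73, adjusted p = 0.0162), where 0.19% of all genes were. The response to sham surgery was not tested between genotypes.

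**Figure D5:**
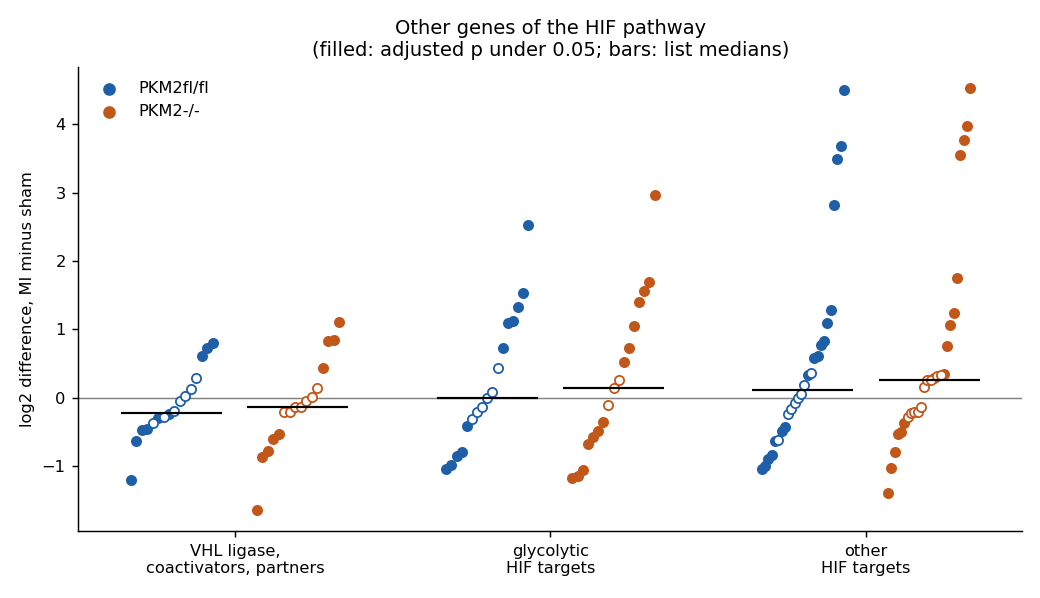
Log2 difference between MI and sham hearts (vertical axis) of every gene of the 3 HIF lists, with PKM2fl/fl in blue and PKM2-/- in orange, filled where the adjusted p was under 0.05, sorted by value within each list, and with bars at the list medians. Each list spreads to both sides of 0, with medians between -0.22 and 0.26.

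Cell type markers moved with infarction alongside these genes. Summed over 8 genes, cardiomyocyte markers ran from 1261960 to 1420150 normalized counts in PKM2fl/fl sham, 273503 to 582128 in PKM2fl/fl MI, 1112370 to 1393300 in PKM2-/- sham and 257208 to 341016 in PKM2-/- MI hearts, with 7 of 8 genes lower after MI in PKM2fl/fl and 8 of 8 in PKM2-/-. *Epas1*, *Egln1*, *Egln2* and *Hif1an*, like the cardiomyocyte sum, were lowest among PKM2fl/fl MI hearts in heart 3, the same heart in which *Hif1a* and *Vhl* were highest. Macrophage markers (6 of 6 detected) summed to 5651 to 10413 in sham and 20654 to 31518 in MI hearts of PKM2fl/fl mice, and to 7210 to 9328 and 25048 to 30664 in PKM2-/- mice, with 6 of 6 higher in both. Fibroblast markers (6 of 6) summed to 24171 to 45424 in sham and 162341 to 176212 in MI hearts of PKM2fl/fl, and to 27755 to 45252 and 141808 to 196246 in PKM2-/- mice, with 5 higher and 1 lower in both. Endothelial markers (8 of 8), which bear on *Epas1*, summed to 20636 to 23675 in sham and 24491 to 26973 in MI hearts of PKM2fl/fl, and to 23489 to 25110 and 25962 to 29347 in PKM2-/- mice, with 3 higher and 0 lower in PKM2fl/fl and 3 higher and 1 lower in PKM2-/- hearts. Of the other lists, all 4 cycling-cell markers and 2 of 5 neutrophil markers tested were higher after MI in both genotypes, 0 of 3 erythroid, 0 of 3 atrial and 0 of 1 adipocyte markers were called, and of 6 pericyte and smooth muscle markers 3 were higher and 1 lower in PKM2fl/fl and 2 and 3 in PKM2-/- hearts. The neutrophil sum was 1232 to 2141 in PKM2fl/fl MI and 3529 to 4530 in PKM2-/- MI hearts, with 0 of the 5 tested markers called between these groups. The pericyte and smooth muscle sum was 13740 to 17092 in PKM2fl/fl MI and 11991 to 13119 in PKM2-/- MI hearts, apart in the other direction, with 0 of 6 called. The part of these cell types in the differences of the 9 genes was not tested.

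The genes whose pattern over the 16 hearts was most like that of each member were found by Pearson's r of log2(normalized count + 1), a description over hearts that fall into MI and other sets. *Epas1* was most like *Sptbn1* (0.995), *Jph2* (0.994) and *Lims2* (0.994), *Egln1* like *Sod2* (0.995), Gm37829 (0.994) and *Rhot2* (0.994), and *Hif1an* like *Pdpr* (0.994), 9430091E24Rik (0.994) and *Ryr2* (0.992). *Jph2* and *Ryr2* are components of the calcium release apparatus of cardiomyocytes, and *Ryr2* is one of the 8 cardiomyocyte markers. None of the other genes named here for *Epas1*, *Egln1* and *Hif1an* is among those markers. The nearest to *Hif1a* were Gm15283 (1.000), whose reads cannot be told apart from its own, *Snapc1l* (0.996), at 0.563 to 0.645 times its count in every library, and *Cstf2* (0.989). *Egln2* was most like *Nop53* (0.938), *Spef1* (0.931) and *Cenpb* (0.929), and *Vhl* like *P2ry10b* (0.927), *Lpar4* (0.920) and Gm26936 (0.919). Likeness was weaker for *Hif3a* (*Jade2*, 0.912; *Lancl3*, 0.903; *Proser2*, 0.898), *Arnt* (*Bclaf1*, 0.910; Gm43055, 0.798; *Aff4*, 0.797) and *Egln3* (*St3gal5*, 0.820; Gm16933, 0.782; *Med1*, 0.762).

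Within the 6 MI hearts and within the 10 other hearts, the members' ties to each other differed. *Epas1* and *Egln1* had r of 0.979 over the MI hearts and 0.408 over the others, and *Epas1* and *Hif1an* 0.855 and 0.685. *Hif1a* and *Epas1*, opposed between the sets, had r of -0.618 over the MI hearts and -0.124 over the others. *Hif1a* and *Hif3a* had r of 0.968 and -0.481, and *Hif1a* and *Egln3* 0.912 and -0.013. These are descriptions over few hearts that share genotype and condition.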

How the data were processed

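Per the labels and the study's methods, the authors removed ribosomal RNA from total left ventricular RNA, sequenced paired ends, aligned trimmed reads with HISAT2 to mm10, counted reads per gene with featureCounts, and deposited counts divided by DESeq2 size factors, a signal in normalized counts. Counting settings for strand and multiple alignments are not given in the sources used here. The deposited table's other columns hold the authors' fold changes and p-values and were not used. Reads were recovered from the steps of the values (100% of nonzero values whole within 0.01). Here log2(normalized count + 1) of 20576 genes with a mean of at least 10 was fitted with limma 3.58.1 (R 4.3.3) over 6 groups, with the variance trend and Benjamini-Hochberg adjustment, called at 0.05. The script was tested on simulated data. Ratios were tested by exact permutation. Likeness is Pearson's r. Levels per kilobase used GENCODE M39 transcript lengths. The 9 genes were fixed by name; the members and all lists were chosen with earlier results of these data known, and the 4 genes named from each other HIF list have its smallest p after MI in PKM2fl/fl hearts, unless said otherwise, except that 1 of them is not reported here. Where nothing says the hearts were processed apart, p-values cover the spread between these hearts only. Alternatives were other scalings, pseudocounts, filters, tools (edgeR 4.0.16, DESeq2 1.42.0), covariates, and leaving out each of 16 libraries. The interaction and genotype comparisons share hearts with the others.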

Additional observations from a re-analysis of the deposited data

How the results depend on the processing

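Of 28 alternatives per comparison, 12 changed a setting and 16 left out 1 library. *Hif1a* and *Egln1* kept their calls after MI in both genotypes under all 28. Sizes moved more than calls. With 1 heart left out, the log2 difference after MI in PKM2fl/fl ran from -1.06 to -0.70 for *Epas1*. It ran from -1.56 to -1.11 for *Egln1* and from -0.57 to -0.33 for *Egln2*. Between MI groups *Egln2* ran from 0.22 to 0.46, and in the interaction *Egln1* ran from -0.57 to -0.11. Total count scaling shifted the median of all genes by -0.18 (MI in PKM2fl/fl), 0.52 (MI in PKM2-/-), -0.59, -0.33 and 0.36 (genotype at baseline, sham and MI), 0.67 (interaction), 0.23 (sham against baseline in PKM2-/-) and -0.19 (mean of 3 conditions), and turned the sign of the following log2 differences by more than 1 standard error. After MI these were *Egln3* -0.12 in PKM2fl/fl, and *Arnt* 0.50, *Egln2* 0.22 and *Egln3* 0.014 in PKM2-/-. Between genotypes they were, at baseline, *Hif1a* -0.52, *Arnt* -0.58, *Egln1* -0.55 and *Egln3* -0.26; in sham hearts *Epas1* -0.24, *Arnt* -0.27, *Egln1* -0.25, *Egln2* -0.15 and *Hif1an* -0.32; in MI hearts *Epas1* 0.21, *Egln1* 0.16, *Vhl* 0.31 and *Hif1an* 0.13. In the interaction they were *Epas1* 0.46, *Arnt* 0.68, *Egln1* 0.41, *Egln3* 0.13 and *Hif1an* 0.45, for sham against baseline in PKM2-/- *Hif1a* 0.042, *Egln1* 0.067 and *Hif1an* 0.21, and over the mean of 3 conditions *Hif1a* -0.054, *Arnt* -0.15 and *Egln2* -0.026. With the ribosomal RNA locus as a covariate, signs turned by more than that for *Egln3* after MI in PKM2fl/fl (-0.14), *Hif1a* (-0.12), *Egln2* (0.22) and *Hif1an* (0.15) at baseline, *Egln2* in the interaction (-0.093), and *Epas1* (0.078), *Egln1* (0.13) and *Hif1an* (0.026) over the mean. These settings turned 15 further values within 1 standard error. With 1 heart left out, 49 of 1296 values over 25 differences changed sign, 44 of them within 1 standard error. The 5 differences that turned by more ranged, at baseline, from -0.88 to 0.16 for *Hif3a* (turned without PKM2fl/fl baseline 2) and from -0.12 to 0.25 for *Hif1a* (without PKM2-/- baseline 1), from -0.17 to 0.15 for *Vhl* between MI groups (without PKM2fl/fl MI 3), and, between sham and baseline, from -0.12 to 0.92 for *Hif3a* in PKM2fl/fl (without baseline 1) and from -0.36 to 0.015 for *Hif1a* in PKM2-/- (without baseline 1). The cause was not tested.

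Of the 9 genes, 3 were called after MI in PKM2-/- with total count scaling. Between genotypes 1 was called in sham hearts by DESeq2 and 1 in MI hearts by DESeq2 or total count scaling; 1 was called over the mean of 3 conditions by DESeq2; and 1 between sham and baseline in PKM2-/- by DESeq2, total count scaling or a fit of the compared groups alone. With 1 heart left out the counts were 6 to 7 after MI in PKM2fl/fl, 5 to 7 in PKM2-/-, 0 to 3 between MI groups, and 0 to 1 between sham groups, between sham and baseline in PKM2-/- and over the mean. Over all genes, calls in place of the 10299 after MI in PKM2fl/fl numbered 6001 with total count scaling and 6014 with the ribosomal RNA locus as a covariate; between genotypes they ran from 0 to 44 at baseline, 0 to 267 in sham and 6 to 1033 in MI hearts over the settings, from 0 to 54 in the interaction, 1 to 356 and 374 to 1405 between sham and baseline in PKM2fl/fl and PKM2-/-, and 0 to 307 over the mean. With 1 heart left out they ran from 0 to 40 at baseline (most without PKM2-/- baseline 1), 0 to 90 in sham (most without PKM2-/- sham 3), 11 to 2279 in MI hearts (fewest without PKM2-/- MI 3), 0 to 486 in the interaction, 0 to 715 over the mean, 7 to 282 between sham and baseline in PKM2fl/fl (most without sham 3, fewest without sham 1) and 316 to 1422 in PKM2-/- (fewest without baseline 2), where the highest counts in MI hearts, the interaction, the mean and PKM2-/- sham against baseline came without PKM2fl/fl MI 3. With the replicate block, 7 of the 9 genes were called after MI in PKM2fl/fl and 7 in PKM2-/- hearts, where *Egln2* (-0.29) gained its call (adjusted p = 0.0239), and the block changed no other call. Replicate numbers did not pair the hearts, since over 36 same-numbered pairs the correlation of deviations ran from -0.196 to 0.126. Depth limits *Hif3a*, with 16 to 252 reads, and *Vhl*, with 94 to 402.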
